A study of Mus musculus with 4 samples.

Results

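The cytosolic and endoplasmic reticulum (ER) chaperones are the proteins that fold new chains and hold damaged ones, and 69 of the 4878 genes measured here belong to this set. Members were taken by gene symbol, without a cut on measured values. The symbols and the compartments were chosen with earlier results of these data known. The symbols cover the subunits of the TRiC ring (Cct2 to Cct8 and Tcp1), prefoldin (Pfdn and Vbp1), the HSP70, HSP90, HSP110 and small heat shock proteins, the J-domain proteins (Dnaj), the BAG factors, Stip1, Ahsa, the FKBP isomerases, the disulfide isomerases (Pdia and P4hb) and the ER factors Calr, Canx, Ero1, Hyou1, Sdf2l1, Manf and Creld2. The mitochondrial matrix members Hspa9, Hspd1, Hspe1, Dnaja3 and Dnajc19 and the matrix proteoglycan Hspg2 were left out. By their known place in the cell, 42 members were assigned to the cytosol, 22 to the ER and 5 to the nucleus or mitochondria.

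The libraries were made from mouse embryonic fibroblasts (MEFs), connective tissue cells cultured from embryos, at passages 5 to 8 of growth on plates. The eIF1A knockdown group (2 libraries) received siRNA named Si-eIF1A (X+18), and the control group (2 libraries) received Si-Negative control; both were transfected with Lipofectamine RNAimax, and no genotype or time is given. eIF1A is a translation initiation factor that binds the small ribosomal subunit while it scans for a start codon. Bulk MARS-seq, which reads the 3′ ends of polyadenylated RNA, gave 2152331 and 2352111 reads in the knockdown libraries and 2182825 and 2595625 reads in the control libraries over the genes measured, as recovered from the steps in the normalised counts. Eif1a and Eif1ax were not analysed here, so the depth of the knockdown was not checked. Of 12 fibroblast markers, 4 were measured (Vim, S100a4, Ly6a and Fn1), and their summed normalised counts were 9945 and 12605 in knockdown and 23188 and 17687 in control libraries. None of 5 epithelial, 4 endothelial, 4 leukocyte or 3 muscle markers was among the genes analysed here. The part of the lower fibroblast marker sum in the results below was not tested. In bulk RNA, fewer cells of a type and less RNA per cell cannot be told apart.

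Chaperones work in teams that divide along the cell's compartments. In the cytosol, prefoldin passes new actin and tubulin chains to the TRiC ring, while HSP70 works with J-domain proteins that deliver clients, exchange factors that release them and HSP90 that finishes many signalling proteins; heat and damaged proteins induce many of these genes through the factor HSF1. In the ER, the HSP70 BiP, the HSP90 GRP94, the lectin chaperone calreticulin, disulfide isomerases and FKBP isomerases fold secreted and membrane proteins, and the unfolded protein response induces many of their genes. Fibroblasts secrete collagen, which calls on several of the ER enzymes.

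Of the 69 members, 63 had a mean normalised count of at least 5 and were tested. Knockdown libraries had 14 members higher and 12 lower than control libraries at an adjusted p under 0.05 (limma with Benjamini-Hochberg adjustment over all genes tested), and 37 did not pass. These are 22.2% higher and 19% lower, beside 15.9% higher and 21.6% lower among all 4605 genes tested, of which 37.5% were called in either direction. The overall share of members called is thus near the background, and the description below is of which chaperones moved. The knockdown and control values did not overlap for 47 of the 63 members, 28 with both knockdown values higher and 19 with both lower. Among all genes the groups did not overlap in 67.8%, 32.4% with higher and 35.5% with lower knockdown values. Scaling moved this split: at equal library totals, 27 members were higher and 7 lower, while the median log2 fold change over all genes, −0.01 as deposited, was 0.34. Fold changes are knockdown over control on the log2(normalised count + 1) scale, with a standard error (SE) from limma. Nothing in the labels says that libraries 1 and 2 of a group are separate cultures. The p-values therefore set the difference between the groups against the spread between libraries of a group, and that spread may be technical. They speak only for these samples.

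**Figure D1:**
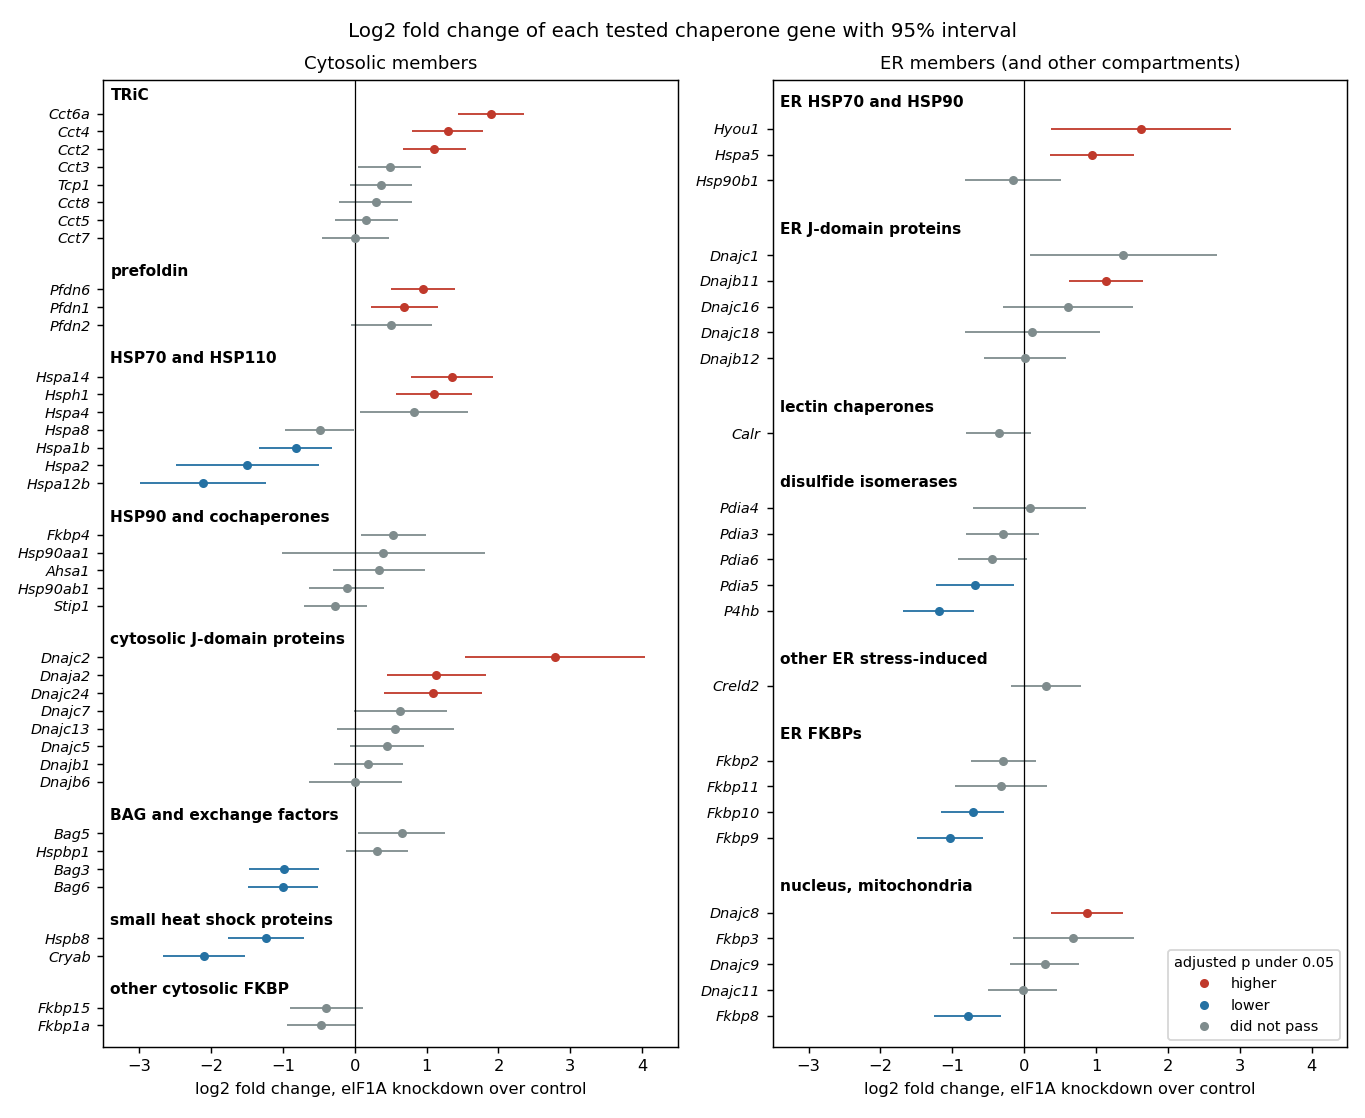
Log2 fold change (eIF1A knockdown over control, x axis) of the 63 tested chaperone genes, cytosolic on the left and ER or other compartments on the right, grouped by role; points are limma estimates, bars 95% intervals, and colour marks adjusted p under 0.05. No TRiC, prefoldin or J-domain gene of the cytosol was called lower, both small heat shock protein genes were, and ER members spread to both sides of 0.

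Among the folding machines of the cytosol, some subunits of TRiC and prefoldin were higher in knockdown cells. TRiC is a ring of 8 different subunits, all of which were measured, and 3 of the 8 rose (Cct2, Cct4 and Cct6a), 5 did not pass and none fell. The median log2 fold change over the 8 was 0.43, beside −0.01 over all genes tested. Across other settings this median ran from 0.28, when the trend of fold change on transcript GC content was removed, to 0.79 with quantile normalisation. After that removal, 6 of the 8 estimates were above 0. Cct6a (mm10 chr5:129786998-129846371, plus strand) had 840 and 759 normalised counts in the knockdown libraries, against 235 and 195 in the control libraries. Both knockdown values stood far above both control values, a rise of 3.72-fold (log2 fold change 1.90 ± 0.22 SE, adjusted p = 2.07e-06). Cct4 (chr11:22990519-23003780, plus strand) had 352 and 332 in knockdown, against 156 and 123 in control, and rose 2.45-fold (adjusted p = 0.000287). Cct2 (chr10:117051001-117063814, minus strand) had 1535 and 1572 in knockdown, against 756 and 685 in control, and rose 2.16-fold (adjusted p = 0.000352). In all 3 genes the libraries of a group lay close together and the groups were well apart.

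The other TRiC subunits did not pass the test, and their values ran from a modest excess in knockdown to none. Cct3 had 918 and 808 in knockdown and 584 and 648 in control (log2 fold change 0.48, adjusted p = 0.0766). Tcp1, the founding subunit of the ring, had 908 and 875 in knockdown and 717 and 663 in control (0.37, adjusted p = 0.173). Both pairs did not overlap, although neither difference passed. Cct5 had 509 and 475 in knockdown and 440 and 439 in control, and Cct8 had 215 and 253 in knockdown and 163 and 222 in control, where the groups overlapped. Cct7 had 3897 and 3955 in knockdown and 4092 and 3724 in control, with both knockdown values between the control values (log2 fold change 0.01, 95% interval −0.45 to 0.47). The subunits of this ring, which holds each in equal number, therefore had fold changes spread over a wide range, from that of Cct7 to that of Cct6a. The interval of Cct7 ends at 0.47, and that of Cct6a begins at 1.44. Tcp1 and Cct8 have exons of another gene on the opposite strand over their last 1000 bases (Acat3 and Usp16), and the sources used here do not say whether counting used strand.

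Prefoldin, the holder that passes actin and tubulin to TRiC, had 3 tested subunits, of which Pfdn1 and Pfdn6 rose and Pfdn2 did not pass. Pfdn6 had 2822 and 2242 in knockdown, against 1275 and 1331 in control, a rise of 1.93-fold with no overlap (log2 fold change 0.95 ± 0.22 SE, adjusted p = 0.00189). Pfdn1 had 1454 and 1511 in knockdown, against 773 and 1091 in control, and rose 1.61-fold (adjusted p = 0.0193). The Pfdn1 call rested on control library 1 and knockdown library 2: the log2 fold change was 0.44 without the first (adjusted p = 0.206) and 0.66 without the second (adjusted p = 0.0785). The Pfdn1 call also ended in a fit that has no mean-variance trend. Pfdn2 had 195 and 153 in knockdown and 99.4 and 148 in control (log2 fold change 0.51, adjusted p = 0.148). The subunits Pfdn4 and Vbp1 fell under the filter. Pfdn4 had 8 and 9 reads in knockdown and 1 and 3 in control libraries, a scaled ratio of 3.52 with a 95% counting interval of 1.15 to 14.4, and Vbp1 had 8 and 6 reads in knockdown and 1 and 8 in control (1.29, 0.52 to 3.38). Pfdn2 and Pfdn6 also overlap exons on the opposite strand (Klhdc9 and a gene known only as CR974462.1).

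**Figure D2:**
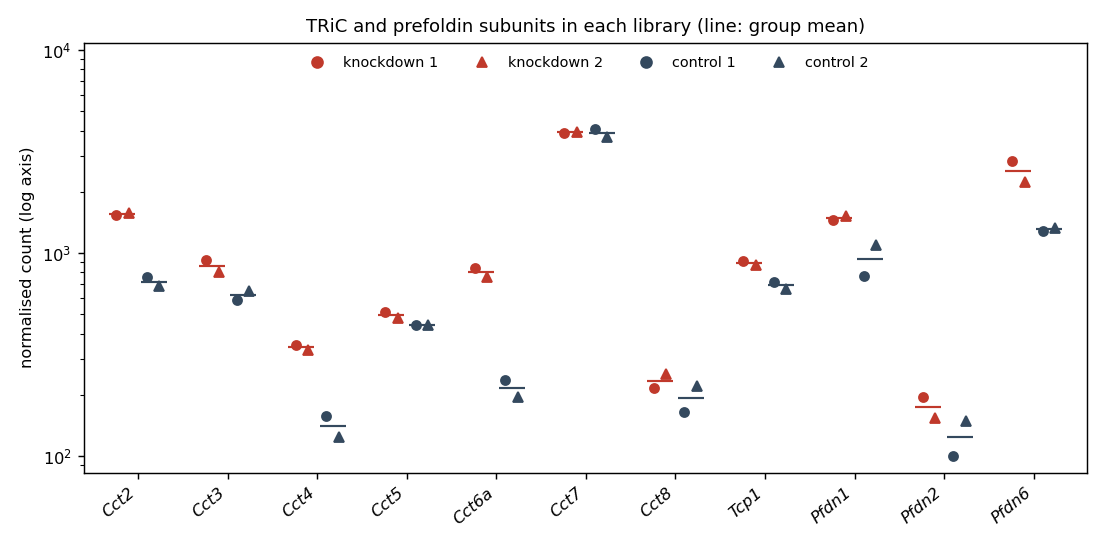
Normalised counts (y axis, log scale) of the 8 TRiC and 3 tested prefoldin genes in each library, knockdown in red to the left and control in dark blue to the right of each gene, with lines at the group means. Cct2, Cct4, Cct6a and Pfdn6 show wide gaps between the groups, while the knockdown values of Cct7, 3897 and 3955, lie between its control values.

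The HSP70 family split by member. Of 7 tested HSP70 and HSP110 genes of the cytosol, 2 rose, 3 fell and 2 did not pass. Their median log2 fold change was −0.49, which is the value of Hspa8, a gene that did not pass. That median was 0.12 with quantile normalisation and negative in the other settings. The risers are a ribosome-bound HSP70 and an exchange factor. Hspa14, which forms the ribosome-associated complex with the J-domain protein Dnajc2, had 250 and 193 in knockdown, against 69.9 and 104 in control. The groups did not overlap, and it rose 2.56-fold (log2 fold change 1.36 ± 0.27 SE, adjusted p = 0.000675). Hsph1, an HSP110 that exchanges the nucleotide of HSP70, had 224 and 290 in knockdown, against 137 and 101 in control, and rose 2.15-fold (adjusted p = 0.00213). Its relative Hspa4 had 46 and 70 in knockdown and 36.4 and 27.6 in control (log2 fold change 0.82, adjusted p = 0.0798). Both HSP110 genes thus had higher values in each knockdown library than in either control library, and for Hsph1 the difference passed.

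The HSP70 genes that fell were the stress-inducible Hspa1b and the family members Hspa2 and Hspa12b. Hspa12b, a divergent HSP70 (chr2:131127280-131146321, plus strand), had 11.3 and 10.2 in knockdown, against 49.2 and 50.3 in control. Its 4 values fell into tight, separate pairs, and it was 4.33-fold lower (log2 fold change −2.11 ± 0.42 SE, adjusted p = 0.00063). Hspa2 had 8.88 and 12.2 in knockdown, against 37.4 and 26 in control, and was 2.82-fold lower (adjusted p = 0.0183). Without control library 1 the log2 fold change of Hspa2 was −1.24 (adjusted p = 0.111), without knockdown library 1 it was −1.28 (adjusted p = 0.105), and with equal totals it was −1.16 (adjusted p = 0.0635). Hspa1b had 122 and 131 in knockdown, against 241 and 209 in control, and was 1.77-fold lower (adjusted p = 0.0116). The Hspa1b call ended without knockdown library 1 (−0.77, adjusted p = 0.0771), with equal totals (−0.47, adjusted p = 0.147), with a fit that has no mean-variance trend (adjusted p = 0.0503) and when the trend of fold change on transcript GC content was removed (−0.26, adjusted p = 0.455). The constitutive HSP70 gene Hspa8 had 4372 and 4101 in knockdown and 5409 and 6547 in control, with no overlap, and did not pass (log2 fold change −0.49, adjusted p = 0.102). The counts of Hspa8 and Hspa1b are uncertain, since 88.6% of the 50-base windows in the last 1000 bases of Hspa8 transcripts are also found in other annotated genes, mostly predicted ones, and 23.8% of those of Hspa1b are found in its near-copy Hspa1a.

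Among the members, the 5 tested genes of HSP90 and its partners did not pass. The HSP90 partners Ptges3 and Nudcd2 are not members and are described with the pathway genes below. Hsp90ab1, the constitutive HSP90 of the cytosol, had 7639 and 9999 in knockdown and 8833 and 10087 in control, and the groups overlapped (log2 fold change −0.11, 95% interval −0.64 to 0.41). Hsp90aa1, the inducible form, had 12.1 and 6.11 in knockdown and 4.92 and 8.12 in control, which overlap at low depth (0.39, adjusted p = 0.687). These 2 genes therefore gave no detectable difference. Stip1, also called HOP, which links HSP70 to HSP90, had 1852 and 1995 in knockdown and 2331 and 2307 in control (−0.27, adjusted p = 0.341). Ahsa1, the activator of the HSP90 ATPase, had a log2 fold change of 0.34 (adjusted p = 0.422). Fkbp4, an immunophilin that binds HSP90, came closest, with 3126 and 2830 in knockdown and 1983 and 2118 in control. The Fkbp4 groups did not overlap, and the adjusted p was 0.0556 (log2 fold change 0.54), while edgeR on the recovered reads gave 0.0388 and DESeq2 gave 0.0381.

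**Figure D3:**
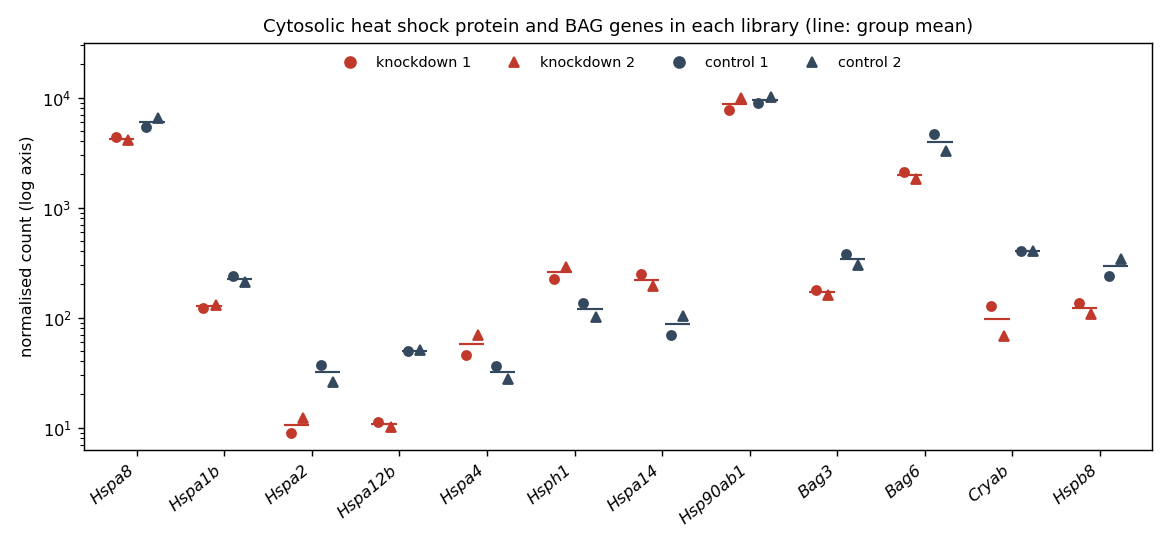
Normalised counts (y axis, log scale) of 12 cytosolic heat shock protein and BAG genes in each library, knockdown in red to the left and control in dark blue to the right, with lines at the group means. Hsph1 and Hspa14 stand higher in knockdown, whereas Hspa12b, Bag3, Bag6, Cryab and Hspb8 stand lower, and the Hsp90ab1 groups overlap.

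J-domain proteins deliver clients to HSP70 and switch on its ATPase. Of 8 tested members of the cytosol, 3 rose, none fell and 5 did not pass, and the median log2 fold change was 0.60. Dnajc2, the partner of Hspa14 on the ribosome, had 38 and 69 reads in knockdown, against 2 and 12 in control, and was called higher (log2 fold change 2.79 ± 0.60 SE, adjusted p = 0.00126). Its size is loosely fixed by the control libraries, at 1.86 without control library 1 and 3.71 without control library 2. Dnaja2, a general J-domain partner of Hspa8, had 66.2 and 94.4 in knockdown, against 34.4 and 36.5 in control, and rose 2.2-fold (adjusted p = 0.0105). Dnajc24, a J-domain protein of diphthamide synthesis on the elongation factor eEF2, had 90.4 and 72 in knockdown, against 32.5 and 43 in control, and rose 2.13-fold (adjusted p = 0.0126). For both genes all knockdown values exceeded all control values. The Dnaja2 call ended without knockdown library 2 (0.88, adjusted p = 0.177) and that of Dnajc24 without knockdown library 1 (0.93, adjusted p = 0.139), and both ended once the GC trend was removed (adjusted p = 0.171 for Dnaja2 and 0.139 for Dnajc24).

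The J-domain genes that did not pass included Dnajb1, the classical heat-inducible HSP40. Dnajb1 had 350 and 272 in knockdown and 291 and 251 in control, which overlap (log2 fold change 0.19, adjusted p = 0.56). Dnajc5, the vesicle protein CSP alpha, had 165 and 194 in knockdown and 139 and 123 in control (0.45, adjusted p = 0.163), and Dnajc7 had 116 and 102 in knockdown and 52.2 and 93.3 in control (0.63, adjusted p = 0.115). The groups of Dnajc5 and of Dnajc7 did not overlap. Dnajc13, an endosomal member, had a log2 fold change of 0.56, and Dnajb6 one of 0.01.

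Of the BAG and related factors, Bag3, Bag4, Bag5 and Hspbp1 are exchange factors that release clients from HSP70, while Bag6 is a holding chaperone. Of 4 tested, Bag3 and Bag6 fell, and Bag5 and Hspbp1 did not pass. Bag3, which works in autophagy together with the small heat shock protein Hspb8, had 179 and 160 in knockdown, against 379 and 300 in control, and was 1.98-fold lower (adjusted p = 0.00258). Bag6, which holds tail-anchored membrane proteins on their way to the ER, had 2100 and 1812 in knockdown, against 4692 and 3236 in control, and was 2.0-fold lower (adjusted p = 0.0024). Both knockdown values lay below both control values in each gene, and both calls ended when the GC trend was removed (Bag3 −0.59, adjusted p = 0.0588, and Bag6 −0.30, adjusted p = 0.366). Bag5 had 98.5 and 87.6 in knockdown and 60 and 57.6 in control (log2 fold change 0.65, adjusted p = 0.0845), and Hspbp1, another exchange factor, had 858 and 863 in knockdown and 683 and 701 in control (0.31, adjusted p = 0.251). Bag4 fell under the filter with 3 and 11 reads in knockdown and 1 and 1 in control (scaled ratio 5.81, 95% counting interval 1.33 to 52.6).

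Small heat shock proteins hold unfolded chains without using ATP, and both tested genes fell. Cryab (alpha B crystallin, chr9:50751325-50756636, plus strand) had 128 and 67.9 in knockdown, against 402 and 404 in control. The control values were nearly equal and both knockdown values were far lower, a fall of 4.29-fold (log2 fold change −2.10 ± 0.27 SE, adjusted p = 9.61e-06). Hspb8 had 136 and 109 in knockdown, against 241 and 342 in control, and fell 2.36-fold without overlap (log2 fold change −1.24 ± 0.25 SE, adjusted p = 0.000822). Hspb8 and its partner Bag3 were therefore both lower in each knockdown library than in either control library. The remaining cytosolic FKBP genes did not pass: Fkbp1a, the target of FK506, had 1198 and 1190 in knockdown and 1360 and 2018 in control (−0.47, adjusted p = 0.11), and Fkbp15 had 146 and 136 in knockdown and 202 and 171 in control (−0.40, adjusted p = 0.218).

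In the ER, the BiP gene Hspa5 and its helpers Hyou1 and Dnajb11 were called higher in knockdown cells, while the disulfide isomerases P4hb and Pdia5 and the isomerases Fkbp9 and Fkbp10 were called lower. Because several ER chaperone genes are textbook targets of the unfolded protein response, promoters were searched on both strands for the ER stress element, spelled CCAAT, any 9 bases, then CCACG. RefSeq windows (GRCm38.p6, from 250 bases before to 50 after the start) were matched for 54 of the 69 members. The element was found in 5 of 17 ER members with a window (Hspa5, Hsp90b1, Calr, Creld2 and Pdia6) and in none of 33 cytosolic ones. Among tested genes with a window it was found in 8 of 3725 (0.215%), these 5 included, and in 0.119% of all windows. Because the element was chosen for known targets among ER chaperones, its share in ER members is not an independent result. The 5 carriers are printed below, as the 250 bases before the start with the element in capitals, in either orientation, because they share these letters and had unlike fold changes. A match is a description of the letters and not a measured binding site.
Hspa5, chr2:34771840-34772089, plus strand: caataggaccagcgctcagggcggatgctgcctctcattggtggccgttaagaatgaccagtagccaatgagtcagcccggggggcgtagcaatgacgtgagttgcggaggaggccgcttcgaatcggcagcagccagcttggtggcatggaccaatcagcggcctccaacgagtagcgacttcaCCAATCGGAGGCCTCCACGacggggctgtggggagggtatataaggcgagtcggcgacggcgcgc
Hsp90b1, chr10:86705445-86705694, minus strand: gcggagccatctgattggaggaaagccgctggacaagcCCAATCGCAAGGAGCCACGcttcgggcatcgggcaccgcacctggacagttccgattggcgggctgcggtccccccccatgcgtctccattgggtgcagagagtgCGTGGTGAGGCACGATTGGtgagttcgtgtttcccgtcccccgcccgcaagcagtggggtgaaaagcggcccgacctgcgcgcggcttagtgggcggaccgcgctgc
Calr, chr8:84846932-84847181, minus strand: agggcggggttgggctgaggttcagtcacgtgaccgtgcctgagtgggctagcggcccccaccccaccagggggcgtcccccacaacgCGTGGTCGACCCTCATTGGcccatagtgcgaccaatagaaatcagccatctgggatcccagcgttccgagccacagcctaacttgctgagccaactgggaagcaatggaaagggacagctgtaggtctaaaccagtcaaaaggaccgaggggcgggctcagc
Creld2, chr15:88819396-88819645, plus strand: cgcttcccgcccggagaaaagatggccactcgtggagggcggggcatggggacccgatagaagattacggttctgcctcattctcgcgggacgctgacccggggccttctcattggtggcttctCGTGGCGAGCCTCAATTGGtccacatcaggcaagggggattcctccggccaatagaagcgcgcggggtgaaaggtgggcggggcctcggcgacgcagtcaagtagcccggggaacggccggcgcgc
Pdia6, chr12:17266339-17266588, plus strand: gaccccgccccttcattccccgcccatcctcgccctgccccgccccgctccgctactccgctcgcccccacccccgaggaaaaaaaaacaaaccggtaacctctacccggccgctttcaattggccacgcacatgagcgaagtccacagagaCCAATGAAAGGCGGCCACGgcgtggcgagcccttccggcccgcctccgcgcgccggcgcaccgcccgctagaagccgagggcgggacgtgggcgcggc
The element begins 65 bases before the start in Hspa5, 98 in Pdia6, 126 in Creld2, 162 in Calr and 212 in Hsp90b1, which has another nearer the start. Of these 5 genes only Hspa5 passed the test, and Creld2 (log2 fold change 0.30), Hsp90b1 (−0.16), Calr (−0.35) and Pdia6 (−0.44) did not.

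BiP is encoded by Hspa5 (chr2:34771970-34777547, plus strand). Hspa5 had 633 and 1416 in knockdown, against 477 and 506 in control. Both knockdown libraries were higher than both control libraries, but they lay far apart from each other, library 2 being 2.24 times library 1. The gene was called higher at 1.92-fold (log2 fold change 0.94 ± 0.28 SE, adjusted p = 0.0119). That call rested on knockdown library 2: without it the log2 fold change was 0.36 (adjusted p = 0.412), and it was 1.52 without knockdown library 1. The call also ended in the fit with no mean-variance trend (adjusted p = 0.132) and after removal of the GC trend (0.50, adjusted p = 0.195). Hsp90b1, which encodes GRP94, had 135 and 357 in knockdown and 242 and 248 in control. Its control values lay between its knockdown values, and it did not pass (−0.16, 95% interval −0.83 to 0.51). The log2 fold change of Hsp90b1 was −0.86 without knockdown library 2 and 0.54 without knockdown library 1. Hyou1, the exchange factor of BiP, had 20.2 and 21.7 in knockdown, against 10.8 and 3.25 in control, and was called higher (log2 fold change 1.63 ± 0.60 SE, adjusted p = 0.0392). The ratio of its summed reads was 3.15 with a 95% counting interval of 1.76 to 5.99. The log2 fold change of Hyou1 was 0.89 without control library 2 (adjusted p = 0.228), 2.37 without control library 1, 1.68 without knockdown library 1 (adjusted p = 0.137) and 1.58 without knockdown library 2 (adjusted p = 0.168). DESeq2 on the recovered reads gave Hyou1 an adjusted p of 0.0854. The Hyou1 call ended in 6 of 16 settings, which also include quantile normalisation and the fit with no mean-variance trend. Hspa13 fell under the filter at 1 and 4 reads in knockdown and 1 and 4 in control.

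Of 5 tested ER J-domain genes, Dnajb11 rose, none fell and 4 did not pass. Their median log2 fold change was 0.61. Dnajb11 (ERdj3), a luminal partner of BiP, had 228 and 309 in knockdown, against 121 and 118 in control, with the groups well apart (log2 fold change 1.14, adjusted p = 0.00126). Dnajc1, another BiP partner, had 24.2 and 20.4 in knockdown and 17.7 and 3.25 in control (1.38, adjusted p = 0.0894). The membrane member Dnajb12 had 93.6 and 99.9 in knockdown and 90.5 and 101 in control, a difference near 0 (0.01), while Dnajc16 had a log2 fold change of 0.61 and Dnajc18 one of 0.11, neither of which passed. Of the ER stress-induced luminal factors, Creld2 had 311 and 391 in knockdown and 327 and 245 in control, which overlap (0.30, adjusted p = 0.341), and Manf fell under the filter at 2 and 2 reads in knockdown and 2 and 1 in control.

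The enzymes that form disulfide bonds had a median log2 fold change of −0.44 over 5 tested genes, of which 2 fell and 3 did not pass. P4hb, a disulfide isomerase that is also the beta subunit of collagen prolyl 4-hydroxylase (chr11:120560298-120573253, minus strand), had 4257 and 4885 in knockdown, against 10709 and 10113 in control. The groups were far apart (log2 fold change −1.19 ± 0.24 SE, adjusted p = 0.000606), though quantile normalisation gave −0.49 (adjusted p = 0.11). Pdia5 had 93.6 and 111 in knockdown, against 148 and 184 in control, and was 1.61-fold lower (adjusted p = 0.0442). The Pdia5 call ended in 10 of 17 other settings, among them without control library 2 (−0.53, adjusted p = 0.187), without knockdown library 1 (−0.56, adjusted p = 0.249), without knockdown library 2 (−0.81, adjusted p = 0.0837), with a replicate block (adjusted p = 0.0667) and by edgeR (adjusted p = 0.0571) and DESeq2 (adjusted p = 0.101). Pdia6 had 453 and 679 in knockdown and 692 and 822 in control (−0.44, adjusted p = 0.142), and Pdia3, the partner of the lectin chaperones, had 312 and 495 in knockdown and 425 and 549 in control (−0.30, adjusted p = 0.365). Pdia4 had 48.4 and 129 in knockdown and 93.5 and 60.1 in control, so that the knockdown values enclosed the control ones (0.08, adjusted p = 0.896). Calr, the calreticulin gene and the only lectin chaperone analysed here, had 2745 and 2862 in knockdown and 3393 and 3777 in control, with no overlap and no call (−0.35, 95% interval −0.81 to 0.10). Exons of Atp6v1c2 lie opposite the last 1000 bases of Pdia6.

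FKBP isomerases of the ER turn proline bonds in secreted chains, and 2 of 4 tested genes fell, while the others did not pass. Fkbp9 (chr6:56832059-56879358, plus strand) had 221 and 240 in knockdown, against 472 and 474 in control, a 2.05-fold fall with tight pairs (log2 fold change −1.03 ± 0.22 SE, adjusted p = 0.00102). Fkbp10, a collagen chaperone also known as FKBP65, had 1293 and 1186 in knockdown, against 2131 and 1938 in control, and was 1.64-fold lower (adjusted p = 0.0115). The Fkbp10 call ended without control library 1 (−0.65, adjusted p = 0.0521), without knockdown library 2 (−0.65, adjusted p = 0.0817), with equal totals (−0.36, adjusted p = 0.166), quantile normalisation (−0.35, adjusted p = 0.187), no mean-variance trend (adjusted p = 0.0687) and the GC trend removed (−0.21, adjusted p = 0.502). Fkbp2 had 2277 and 2058 in knockdown and 2907 and 2413 in control (−0.29, adjusted p = 0.319), and Fkbp11 had 277 and 132 in knockdown and 188 and 304 in control (−0.32, adjusted p = 0.451). Fkbp7 fell under the filter with 1 and 1 reads in knockdown and 6 and 6 in control, a scaled ratio of control over knockdown of 7.23 with a 95% counting interval of 1.61 to 66.6.

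**Figure D4:**
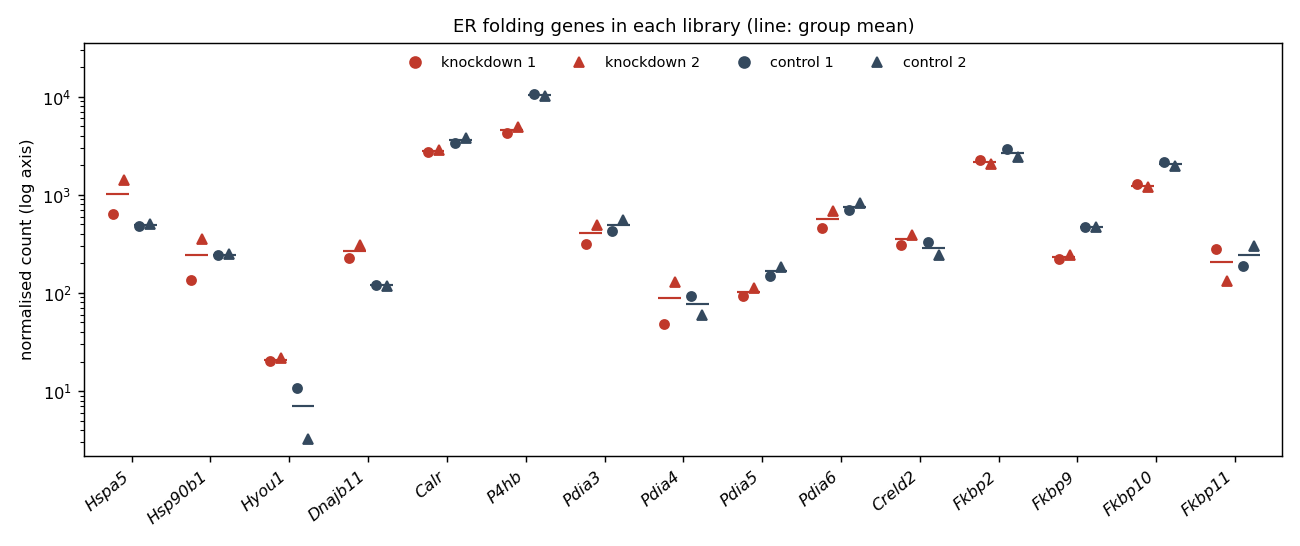
Normalised counts (y axis, log scale) of 15 ER folding genes in each library, knockdown in red to the left and control in dark blue to the right, with lines at the group means. Dnajb11 stands higher and P4hb, Fkbp9 and Fkbp10 stand lower in both knockdown libraries, while the knockdown libraries of Hspa5, Hsp90b1 and Pdia4 lie far apart.

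Of the 5 members of other compartments, Dnajc8 rose, Fkbp8 fell and 3 did not pass. Dnajc8, a spliceosome protein, had 274 and 230 in knockdown, against 130 and 143 in control, and rose 1.84-fold (adjusted p = 0.00716); the call ended without knockdown library 1 (0.75, adjusted p = 0.0946) and after removal of the GC trend (0.47, adjusted p = 0.164). Fkbp8, an isomerase of the mitochondrial outer membrane, had 2781 and 2206 in knockdown, against 4274 and 4275 in control, and was 1.73-fold lower (adjusted p = 0.0093). The Fkbp8 call ended without knockdown library 2 (−0.62, adjusted p = 0.106), with equal totals (−0.43, adjusted p = 0.0971), quantile normalisation (−0.37, adjusted p = 0.17) and no mean-variance trend (adjusted p = 0.0616), and its sign turned with the GC trend removed (0.05, adjusted p = 0.889). Dnajc9, Dnajc11 and Fkbp3 had log2 fold changes of 0.28, −0.02 and 0.68.

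Set side by side, ER members had a lower median log2 fold change than cytosolic members, with a difference of −0.53 (ER minus cytosolic) that was negative in every setting tried and ran from −0.64 (genes with a mean of at least 20) to −0.27 (without knockdown library 1). The 39 tested cytosolic members comprised 10 that rose (25.6%), 7 that fell (17.9%) and 22 that did not pass. The median log2 fold change of these 39 was 0.37. The 19 tested ER members comprised 3 that rose (15.8%), 4 that fell (21.1%) and 12 that did not pass, and their median was −0.16. Within the cytosol the estimates ran from −2.11 (Hspa12b) to 2.79 (Dnajc2), and within the ER from −1.19 (P4hb) to 1.63 (Hyou1). The medians are given as a description, with no test, since members are not replicates and 2 libraries against 2 cannot go below p = 0.33 in an exact permutation test. The ER median itself changed sign between settings, and the median over all genes also moved, not always in the same direction. As deposited, the ER median is the value of Hsp90b1, a gene with 135 and 357 in the knockdown libraries. Hsp90b1 also had the value of the ER median with edgeR, DESeq2, quantile normalisation and equal totals. The ER median was 0.069 with edgeR (0.052 over all genes), 0.041 with DESeq2 (0.031), 0.0070 with quantile normalisation (0.042) and 0.19 with equal totals (0.34). It was −0.29 for genes with a mean of at least 20 (−0.051), −0.21 after removal of the GC trend (0.015) and −0.09 with TMM scaling (0.053). Relative to all genes the ER median was −0.15 as deposited, and it was 0.017 with edgeR, 0.010 with DESeq2, −0.035 with quantile normalisation and −0.14 with equal totals. The cytosolic median relative to all genes was 0.38 as deposited and stayed positive in each of these settings, from 0.20 after removal of the GC trend to 0.48 with quantile normalisation.

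By library, the cytosolic median against the control mean was 0.37 in knockdown library 1 and 0.33 in knockdown library 2, whereas the ER median was −0.22 in knockdown library 1 and 0.06 in knockdown library 2. The medians of all genes were −0.04 in knockdown library 1 and 0.01 in knockdown library 2. The ER class thus differed between the knockdown libraries, with 14 of 19 ER members higher in library 2 than in library 1 (median log2 difference 0.20), beside 16 of 39 cytosolic members (−0.09) and 2411 of 4605 genes (0.03). Among ER members, library 2 over library 1 was 2.66 for Pdia4, 2.65 for Hsp90b1, 2.24 for Hspa5, 1.59 for Pdia3, 1.50 for Pdia6 and 1.35 for Dnajb11, and Fkbp11 went the other way at 0.478. In the control libraries the same ratio was 0.642 for Pdia4, 1.02 for Hsp90b1, 1.06 for Hspa5, 1.29 for Pdia3, 1.19 for Pdia6, 0.979 for Dnajb11 and 1.61 for Fkbp11. With 2 libraries a group, this difference within the knockdown group has no test.

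**Figure D5:**
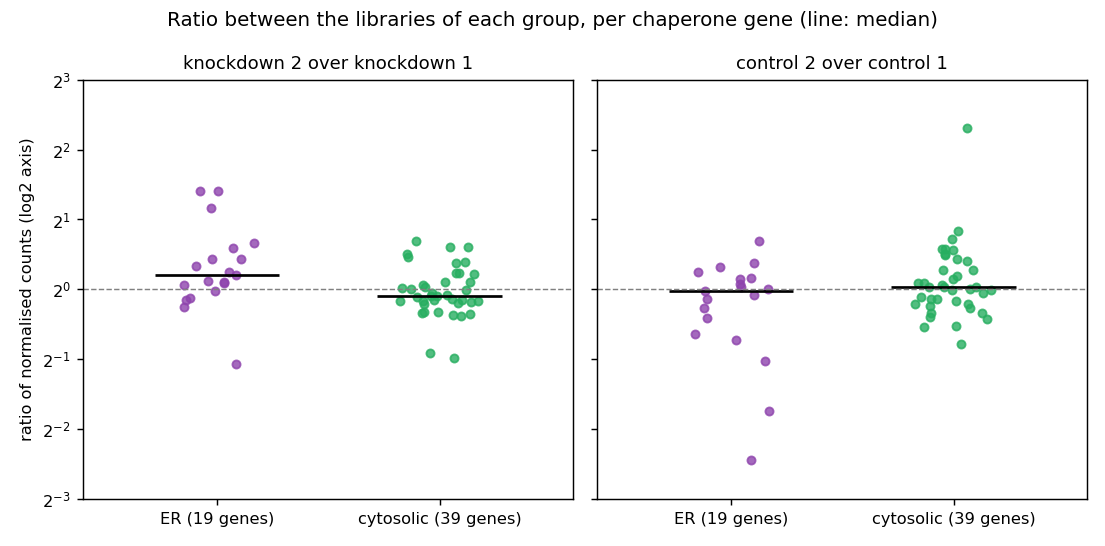
Ratio of normalised counts between the libraries of a group (library 2 over library 1, log2 axis) for each tested ER and cytosolic chaperone gene, knockdown on the left panel and control on the right, with lines at the medians. Most ER genes, 14 of 19, lie above 1 in the knockdown panel, led by Pdia4, Hsp90b1 and Hspa5, beside 16 of 39 cytosolic genes.

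Other genes of the same pathways were read from lists of general knowledge. Of 43 listed cytosolic cochaperones and heat shock regulators, 27 were measured and 26 tested: 8 rose, 1 fell and 17 did not pass. The median over the 26 was 0.36, beside −0.01 over all genes tested, of which 15.9% were called higher and 21.6% lower. Zfand2a, an arsenite-inducible partner of the proteasome, had 132 and 166 in knockdown, against 43.3 and 50.3 in control, and rose 3.13-fold (adjusted p = 0.00018). Cacybp, a protein that binds calcyclin and ubiquitin ligase parts, had 104 and 140 in knockdown, against 25.6 and 54.4 in control, and rose 3.17-fold (adjusted p = 0.000978). Nudcd2, which works with HSP90, had 115 and 136 in knockdown, against 42.3 and 52.8 in control, and rose 2.62-fold (adjusted p = 0.00102). Ptges3, the HSP90 cochaperone p23, had 169 and 295 in knockdown, against 102 and 123 in control, and rose 1.99-fold (adjusted p = 0.00859), a call that ended without knockdown library 2 (log2 fold change 0.59, adjusted p = 0.249), after removal of the GC trend (adjusted p = 0.193) and in the fit with no mean-variance trend (adjusted p = 0.0754).

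Of 77 listed genes of ER folding, degradation and the unfolded protein response, 47 were measured and 45 tested: 4 rose, 10 fell and 31 did not pass. The median over the 45 was −0.04, beside −0.01 over all genes tested. Calls among all those genes were 15.9% higher and 21.6% lower. Atf4, the stress-induced transcription factor, rose the furthest of those named, with 3959 and 3432 in knockdown against 517 and 642 in control (6.39-fold, adjusted p = 3.36e-08). The receptors that return escaped ER chaperones from the Golgi were lower. Kdelr3 had 243 and 192 in knockdown, against 971 and 917 in control (4.35-fold lower, adjusted p = 5.1e-07). Exons of Ddx17 lie on the opposite strand over the last 1000 bases of Kdelr3. Kdelr2 had 420 and 452 in knockdown, against 919 and 913 in control (2.10-fold lower, adjusted p = 0.000504). Edem2, which marks misfolded glycoproteins for degradation, had 206 and 179 in knockdown, against 416 and 348 in control (1.98-fold lower, adjusted p = 0.00222). P3h1, a collagen prolyl 3-hydroxylase, had 189 and 186 in knockdown, against 396 and 330 in control (1.92-fold lower, adjusted p = 0.00303), a call that ended with the GC trend removed (adjusted p = 0.0876).

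Promoters were also searched for the heat shock element (TTC, any 2 bases, GAA, any 2 bases, TTC, on both strands) and for the start of the ATF4 composite site, TGATGNAA. The heat shock element was found in 2 of 54 members with a window, Dnajb6 and Hsph1. It was found in 0.752% of tested genes with a window and 0.603% of all windows. Depending on the annotated start, the match begins 15 or 36 bases after the start in Hsph1. In Dnajb6 it begins 46 or 127 bases before the start. Hsph1 rose and Dnajb6 had a log2 fold change of 0.01. The ATF4 start was found in 1 member, Hspa14, beginning 56 bases before its start, beside 2.68% of tested genes and 3.97% of all windows.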

How the data were processed

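Groups and replicate numbers came from the sample titles, and each group had 2 libraries. The authors deposited 1 table of normalised counts (a signal, by its file name); the sources used here do not give the factors behind it, the choice of genes, or the use of molecular identifiers and strand. Per the submitters' processing notes, the tools were STAR, HTSeq, DESeq2, cutadapt 1.8.3 and bcl2fastq 2.17.1.14 and the build mm10, with no roles stated. Each deposited column held whole multiples of a single step (100% of values within 0.01 read), so reads were recovered. The median gene had 143 and 173 reads in knockdown and 120 and 139 in control libraries, and 504 and 349 genes in knockdown and 605 and 524 in control libraries had fewer than 10.

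Values were tested with limma 3.58.1 (R 4.3.3) on log2(value + 1), fitting a trend of variance on mean, for genes with a mean of at least 5 (4605, with 273 under the filter). The p-values were adjusted by Benjamini-Hochberg over all tested genes with a threshold of 0.05. edgeR 4.0.16 on the recovered reads called 807 genes higher and 909 lower. For few reads, ratios carry exact (Clopper-Pearson) 95% intervals, which cover counting error only. Other settings changed the pseudocount, filter, scaling, block, trend, tool, libraries or a loess correction (span 0.5) for transcript GC content. The fits were tested on simulated data. Coordinates and transcripts came from GENCODE M21 and promoters from RefSeq. The labels give no batch or date, and do not say that replicate numbers mark shared cultures. The members, their compartments, the pathway lists and the tests were chosen with earlier results of these data known. Named with all library values were members past the threshold, up to 3 others of highest mean in each role, and up to 5 genes of smallest p in each pathway list; other members named beyond this, mostly by their fold change alone, complete the account of the set. The result of 1 gene of the pathway lists is not reported here.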

Additional observations from a re-analysis of the deposited data

How the results depend on the processing

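Of the 26 members called, 12 passed in all 17 other settings, namely Cct2, Cct4, Cct6a, Dnajb11, Dnajc2, Hspa14, Hsph1 and Pfdn6 as higher and Cryab, Fkbp9, Hspa12b and Hspb8 as lower. The causes of the shifts below were not tested. Equal totals gave 1299 genes higher and 603 lower, with 27 members higher and 7 lower. The genes called lower were 655 with no trend and 662 with the GC trend removed, and the genes called higher were 442 to 758 when a library was left out, the lowest without knockdown library 2. Without 1 library, 10 to 15 members were higher and 10 to 11 lower.

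The cytosolic median was 0.32 at a pseudocount of 5, 0.42 with no filter, 0.43 with TMM scaling, 0.70 with equal totals, 0.52 with quantile normalisation, 0.43 with edgeR, 0.41 with DESeq2, 0.22 with the GC trend removed and 0.29 to 0.37 without 1 library. The ER median was 0.19 with equal totals, 0.0070 with quantile normalisation, 0.069 with edgeR, 0.041 with DESeq2, −0.29 for genes with a mean of at least 20, −0.21 with the GC trend removed, −0.09 with TMM scaling and −0.22 to 0.059 without 1 library. The ER minus cytosolic median was negative in every setting tried, at −0.36 with edgeR, −0.64 for genes with a mean of at least 20 and −0.59 to −0.27 without 1 library.

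Some estimates changed sign in some settings, and not all of them were near 0. As deposited, the log2 fold change was −0.79 for the called member Fkbp8 and −0.49 for Hspa8. TMM scaling gave Dnajc11 0.047. Equal totals gave Fkbp2 0.062, Fkbp11 0.034, Hsp90b1 0.19, Hsp90ab1 0.24, Stip1 0.082, Pdia3 0.052 and Dnajc11 0.33. Quantile normalisation gave Fkbp2 0.069, Hsp90b1 0.0070, Dnajb12 −0.058, Dnajc18 −0.16, Hspa8 0.12, Hsp90ab1 0.59, Stip1 0.064, Pdia3 0.0155, Calr 0.043 and Dnajc11 0.16. The reads gave Hsp90b1 0.069 and Dnajc11 0.042 with edgeR, and Hsp90b1 0.041 and Dnajc11 0.023 with DESeq2. Removing the GC trend gave Fkbp8 0.054, Fkbp2 0.53, Fkbp11 0.0009, Dnajc18 −0.26, Tcp1 −0.0037, Pdia4 −0.28, Dnajc9 −0.092 and Dnajc11 0.22. Leaving out 1 library gave ranges of −0.0685 to 0.0938 for Dnajb12, −0.14 to 0.10 for Dnajc11, −0.85 to 0.21 for Fkbp11, −0.38 to 0.61 for Dnajc18, −0.060 to 0.076 for Cct7, −0.62 to 0.78 for Pdia4, −0.86 to 0.54 for Hsp90b1, −0.31 to 0.083 for Hsp90ab1 and −0.63 to 0.033 for Pdia3.

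Same-numbered libraries did not deviate together (correlation −0.13). With the replicate number as a block, 641 genes were higher and 918 lower, with 14 members higher and 11 lower. The crossed block, chosen after seeing the data, gave 891 and 1154 genes, with 20 members higher and 13 lower. Members with few reads had wide 95% intervals of the log2 fold change, such as 0.38 to 2.89 for Hyou1 and 0.08 to 2.69 for Dnajc1.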
